A study of Mus musculus with 72 samples.

Results

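Lung RNA-Seq was compared between 4 libraries from *Bmal1*-KO mice that received a muscle *Bmal1* vector (KO+AAV) and 4 from *Bmal1*-KO mice with no labelled vector, all male and 40 weeks old. These 8 libraries, out of 72 in the series, were taken by their tissue, genotype, and age labels. The mice of all 8 libraries carried the KO of the endogenous *Bmal1* gene in every tissue and were bred from heterozygous parents per the study's methods. Their lung was collected at ZT1, 1 hour after lights on. The KO+AAV mice had been injected on postnatal day 5 with an AAV9 vector carrying an HA-tagged *Bmal1* cDNA under CK6, a constitutive promoter active in skeletal muscle fibers. The comparison addressed how lung gene expression differs when *Bmal1* is put back in muscle while lung itself still carries the KO. No WT lung and no lung from mice given a GFP vector was analysed here, so the vector's cargo cannot be told apart from injection of a vector, and no KO value is set against WT. How much large airway or vessel was taken with each lung is not given in the sources used here, and which mouse gave each library is not labelled, so replicate numbers served as names only.

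BMAL1 (the gene *Arntl* in the deposited table) pairs with CLOCK to switch on genes with E-boxes, among them the *Per*, *Cry*, and *Nr1d* genes that feed back on it, and in most tissues this loop sets daily rhythms of output genes. Lung is mostly thin alveolar tissue, with type I cells for gas exchange and type II cells that make surfactant, reached by airways lined with club, ciliated, and basal cells. Mucous and serous glands lie around the upper airway, and in mice the pulmonary veins are sheathed in cardiac muscle of atrial type. Both tissues can be present in a lung sample in varying amounts.

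The libraries held 38180622 to 49821579 reads on genes. Lung markers were high in all 8 libraries, with 9141 to 16980 CPM of *Sftpc* (a surfactant protein of type II cells) and 36780 to 55340 CPM of *Scgb1a1* (the main club cell secretoglobin), against at most 18.6 and 84.1 CPM in the heart, liver, and white fat libraries of the same age. The first principal component held 40.0% of the variance and KO replicate 1 stood farthest out on it, at -89.6 against -23.6 to 54.3 for the other 7. That library had the lowest level of the cardiac muscle, airway gland, B cell, and T cell lists described below. KO replicate 3 had the most fat RNA of the KO libraries, with 1844 normalized counts of *Adipoq* (adiponectin) against 2.10 to 72.0 in the other KO libraries, and 5884 normalized counts of *Ucp1* (the brown fat uncoupling protein) against at most 561 in any other lung library. Values without these libraries are given below where they change a direction, a median, or a count.

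*Arntl*, the gene that is knocked out and that the vector carries, was measured first. It had 1423, 1503, 1413, and 1489 normalized counts in the KO libraries and 1499, 1819, 1427, and 1641 in the KO+AAV libraries. The groups overlapped, and their means differed by 0.126 on the log2(normalized count + 1) scale, with an exact two-sided permutation p of 0.171 over 70 arrangements, where 0.0286 is the smallest possible. Leaving out each library in turn gave differences of 0.0613 to 0.178. These reads do not show whether transcripts were from the disrupted gene or the vector, and without WT lung they do not check the KO label.

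Of 19 genes on the clock list, 2 were DEGs (P under 0.01 by limma on log2(normalized count + 1), the study's cutoff), against 3.96% of all 21072 genes tested. *Nfil3*, a repressor of E4BP4 sites that opposes DBP, had 926, 967, 981, and 909 normalized counts in KO and 1065, 1192, 1135, and 1377 in KO+AAV libraries, a log2 fold change of 0.33 ± 0.09 (SE). *Bhlhe40*, an E-box repressor, had 2146, 1825, 2053, and 1801 in KO and 1689.7, 1469.7, 1347, and 1717 in KO+AAV libraries, a log2 fold change of -0.33 ± 0.10. Neither gene's groups overlapped, neither passed an adjusted P of 0.05 (0.195 and 0.234), and without KO replicate 1 neither was a DEG. The median log2 fold change of the 19 genes was -0.0212, between -0.51 for *Nr1d1* and 0.55 for *Per1*, which varied from 2006 to 8209 across the 8 libraries. In gastrocnemius of 5 KO and 5 KO+AAV mice of the same age, the muscle the vector was built for, *Per3*, *Nr1d2*, and *Hlf* were higher with log2 fold changes of 3.20, 1.74, and 2.199 (adjusted P of 0.0447 each). In lung the same 3 genes had log2 fold changes of -0.17, -0.05, and 0.47, and their groups overlapped. *Arntl* itself was not higher in that muscle, with a log2 fold change of -0.479. It had 307.5 to 1039 normalized counts in KO and 268.1 to 358.6 in KO+AAV gastrocnemius. The *Arntl* counts in lung therefore do not show whether vector transcript was present there.

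Across all genes, 835 of 21072 were DEGs (3.96%), of which 645 (3.06% of genes) were higher in KO+AAV lung and 190 (0.902%) lower. About 211 genes would be expected at this cutoff if no gene differed. Only 5 genes (0.0237%) had an adjusted P under 0.05, and all 5 rose in KO+AAV lung. At P under 0.05 there were 2517 genes (11.9%), the share against which counts at that cutoff are to be read below. For 1426 genes (6.77%) the values of the 4 KO and 4 KO+AAV libraries did not overlap. The number with an adjusted P under 0.05 depended on the test and the libraries, being 4 with edgeR, 626 with DESeq2, 445 with library quality weights, and 257 without KO+AAV replicate 2, the library with the lowest cardiac and gland levels of its group. It was 3 without KO replicate 2, 8 without KO replicate 4, and 2 when KO replicate 3 or KO+AAV replicate 1, 3, or 4 was the library left out. DEGs numbered 447 without KO+AAV replicate 3 and 418 without KO+AAV replicate 4, and lower DEGs ranged from 64 without KO+AAV replicate 4 to 331 without KO+AAV replicate 1.

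**Figure D1:**
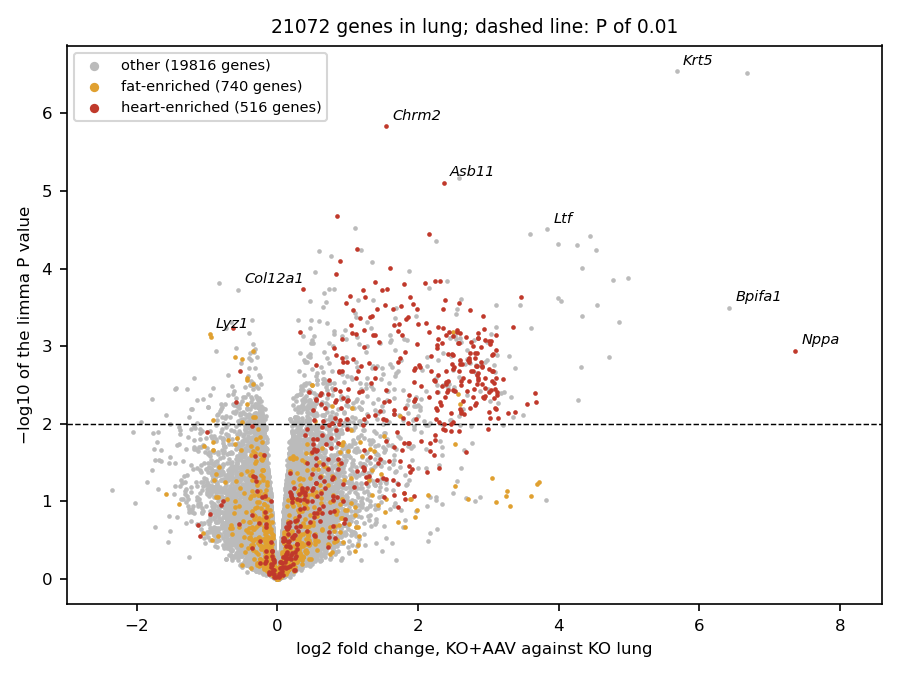
Each point is 1 of the 21072 genes tested in lung, placed by its log2 fold change (KO+AAV against KO, x axis) and the −log10 of its limma P value (y axis), and colored by whether the gene is heart-enriched, fat-enriched, or neither. Of the 263 heart-enriched DEGs, 260 lie to the right of 0, and *Krt5* and a gene with no symbol lie apart at the top right.

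The 5 genes with an adjusted P under 0.05 were of mixed kind. *Krt5* (ENSMUSG00000061527, chr15:101707070-101712898, - strand, GRCm38), a keratin of basal cells of stratified and airway epithelium, had no read in any KO library and 77.3, 21.9, 49.8, and 74.4 normalized counts in the KO+AAV libraries. Against a floor of 3 reads over the whole KO group, it was at least 80.7-fold higher in KO+AAV lung, with an adjusted P of 0.00317. ENSMUSG00000118522, which has no symbol in the tables used, had 0, 0, 0, and 0.867 normalized counts in KO and 215, 45, 196, and 103 in KO+AAV libraries, a ratio of summed reads of 609 (exact 95% interval for counting error only, 109 to 24103) and an adjusted P of 0.00317. Both genes were absent or nearly absent from every KO library and present in every KO+AAV library. Only genes with a mean above 5 normalized counts over the 8 libraries were tested (the filter on low values). Both genes passed it only through the KO+AAV libraries, so they had to differ.

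*Chrm2* (ENSMUSG00000045613, chr6:36388084-36528414, + strand), the muscarinic receptor through which the vagus slows the heart and acts on airway smooth muscle and nerve endings, had 548, 846, 675, and 772 normalized counts in KO and 2026, 1725, 2142, and 2349 in KO+AAV libraries. The lowest KO+AAV library was above the highest KO library, with a log2 fold change of 1.54 ± 0.14 and an adjusted P of 0.0103. *Asb11* (ENSMUSG00000031382, chrX:164436994-164459170, + strand), a substrate adaptor of a ubiquitin ligase, had 28.4, 44.6, 43.1, and 58.1 in KO and 221, 149, 265, and 277 in KO+AAV libraries (log2 fold change of 2.36 ± 0.27, adjusted P of 0.0329). The predicted gene *Gm21976* (ENSMUSG00000096330, chr13:98279887-98307154, + strand) had 7.35, 12.7, 7.66, and 7.81 in KO and 55.8, 42.7, 55, and 80.7 in KO+AAV libraries (log2 fold change of 2.58 ± 0.29, adjusted P of 0.0329). The groups of these 3 genes did not overlap. *Chrm2* and *Asb11* are also heart-enriched, as defined below.

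*Krt5* and ENSMUSG00000118522 kept an adjusted P under 0.05 whichever library was left out. Because both passed the filter only through the KO+AAV libraries, this adds no support for them. *Chrm2* had an adjusted P of 0.0779 without KO replicate 3, and of 0.0703, 0.0872, and 0.0644 without KO+AAV replicates 1, 3, and 4. *Asb11* went to between 0.111 and 0.236 without KO replicate 2 or 3 or KO+AAV replicate 1, 3, or 4, and *Gm21976* to between 0.0508 and 0.236 without any library other than KO+AAV replicate 2. Over all alternatives, the highest adjusted P was 0.69 for each of the 5 genes, with the cardiac muscle and airway gland levels as covariates, and the lowest ran from 5.12e-19 for *Chrm2* to 4.25e-09 for *Gm21976*.

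Genes of cardiac muscle were higher in KO+AAV lung. Of 16 genes on the cardiac muscle list, 15 were DEGs, all higher in KO+AAV lung, and the median log2 fold change was 2.93, against about 0 for all genes. The 16th, *Actc1* (cardiac actin), had a log2 fold change of 2.36 with groups that overlapped. The promoters of 2 of these genes are shown for the muscle motifs they carry, as the 250 bases before the RefSeq start in GRCm38.p6, with the motif in capitals. The first is that of *Myl7*, the atrial myosin light chain (chr11:5898783-5899032, minus strand), with a CArG box, the site of serum response factor, starting at base -61. The second is that of *Mybpc3*, cardiac myosin-binding protein C (chr2:91117894-91118143, plus strand), with a MEF2 box starting at base -90.
Myl7: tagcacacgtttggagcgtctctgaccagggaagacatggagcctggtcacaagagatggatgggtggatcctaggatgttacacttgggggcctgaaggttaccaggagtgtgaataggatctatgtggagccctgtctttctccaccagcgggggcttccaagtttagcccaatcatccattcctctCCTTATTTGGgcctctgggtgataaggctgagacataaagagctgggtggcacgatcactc
Mybpc3: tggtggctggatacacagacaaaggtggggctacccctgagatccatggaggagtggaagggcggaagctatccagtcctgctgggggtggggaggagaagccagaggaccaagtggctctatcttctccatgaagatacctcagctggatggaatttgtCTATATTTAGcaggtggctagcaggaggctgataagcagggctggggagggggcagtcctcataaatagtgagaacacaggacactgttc
Searched on both strands from 250 bases before to 50 after the start, the CArG box was in 1.81% and the MEF2 box in 0.636% of 27025 RefSeq genes. Of the 15 cardiac genes with a window, 2 held the first (*Actc1* and *Myl7*) and 3 the second (*Mybpc3*, *Myoz2*, and *Ttn*). The canonical E-box CACGTG, the site of BMAL1 and CLOCK, was in 8.09% of RefSeq genes and in none of these 15.

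*Myl7* had 125, 2099.9, 2655, and 3349.7 normalized counts in KO and 12186, 5054, 17468, and 19622 in KO+AAV libraries, a log2 fold change of 3.28 ± 0.96. *Mybpc3* had 224, 989.9, 1089, and 1984 in KO and 7168, 2939, 9166, and 10738 in KO+AAV libraries, a log2 fold change of 3.02 ± 0.64. *Nppa*, the atrial natriuretic peptide, had 0, 3.64, 56.5, and 350.4 in KO and 5113, 851, 5255, and 3032 in KO+AAV libraries. Of its exon bases, 61.5% lie opposite another gene, *Gm13054*, with the strand setting of the counting not given in the sources used here. The groups of all 3 genes were apart, KO replicate 1 was lowest of the KO libraries, and KO+AAV replicate 2 was lowest of the KO+AAV libraries. The same order held for the 16 genes as a list. Their mean level on the log2(normalized count + 1) scale was 7.24, 10.01, 10.32, and 11.1 in KO and 12.91, 11.71, 13.26, and 13.47 in KO+AAV libraries. Summed, they reached 0.200%, 1.38%, 1.48%, and 2.29% of the median over heart libraries in KO and 7.57%, 3.32%, 9.69%, and 11.2% in KO+AAV lung. In a bulk sample, more cells of a type and more RNA per cell cannot be told apart.

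Of 3 ventricular muscle genes tested, none was a DEG on the higher side. *Myl3*, a ventricular light chain also found in slow muscle, had 244, 879.7, 984, and 1730.4 normalized counts in KO and 1676, 888, 2708, and 5945 in KO+AAV libraries, with overlapping groups. *Myl2*, the regulatory light chain of ventricle and slow muscle, was at 1.53 to 8.72 CPM in KO and 0.183 to 4.23 CPM in KO+AAV lung, against 2123 to 6050 CPM in the heart libraries. *Myh7*, the slow cardiac and skeletal myosin, was a DEG and lower, with 838, 771, 557, and 793 normalized counts in KO and 491, 508, 499, and 521 in KO+AAV libraries, a log2 fold change of -0.53 ± 0.13. Of the 15 DEGs of the cardiac list, 10 were DEGs without KO+AAV replicate 3, 10 without KO+AAV replicate 4, and 11 without KO+AAV replicate 1.

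The pattern reached well past the list. Genes were called heart-enriched where their median CPM in the heart libraries was at least 1 and at least 8 times that in liver and in white fat. Lung values entered only through the filter on low values. Of 516 such genes tested in lung, 263 (51.0%) were DEGs, 260 of them higher in KO+AAV lung, with a median log2 fold change of 1.17. The 516 include 15 of the 16 cardiac list genes. A gene low in KO lung could pass the filter only through the KO+AAV libraries. How many did so was not counted, so the share may be raised by this. Of the 740 genes enriched in white fat by the same rule, 22 (2.97%) were DEGs, and of the remaining 19816 genes, 550 (2.78%) were DEGs, 376 higher and 174 lower. *Ppp2r3a*, a regulatory subunit of protein phosphatase 2A, and *Gm5532* were heart-enriched genes among the 10 with the smallest P that were higher, with log2 fold changes of 0.85 ± 0.11 and 2.16 ± 0.29.

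Products of airway glands and of the upper airway surface were also higher. *Ltf*, the iron-binding antimicrobial lactoferrin, had 316, 1804, 599, and 1409 normalized counts in KO and 14713, 7671, 10431, and 17352 in KO+AAV libraries, a log2 fold change of 3.84 ± 0.51. *Bpifb1*, a secreted protein of mucous cells, had 166, 1626, 580.5, and 1169 in KO and 14657, 5918, 20794, and 16904 in KO+AAV libraries, a log2 fold change of 4.33 ± 0.67. The gel-forming mucin *Muc5b* had 383, 1955, 1959, and 4130.3 in KO and 8479, 7088, 11467, and 14211 in KO+AAV libraries, a log2 fold change of 2.66 ± 0.61. The lowest KO+AAV library, replicate 2, was above the highest KO library for each of these 3 genes. Of 15 genes on the gland list, 8 passed the filter on low values and 5 of them were DEGs, all higher, against 3.06% of all genes. The median log2 fold change was 2.99, and *Tff2* and *Gp2* were the other DEGs. Of the 8 genes, 7 were on the higher side. The other, *Azgp1*, had mean normalized counts of 369.4 in KO and 363.8 in KO+AAV lung. The salivary-type products *Dcpp1*, *Dcpp2*, *Dcpp3*, *Smgc*, *Pip*, and *Prol1* did not pass the filter in lung.

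Of 12 genes on the airway basal cell list, 9 were tested and 6 were DEGs, all higher, of which only *Krt5* had an adjusted P under 0.05. *Krt5* and *Krt17* had a KO mean of at most 5 and passed the filter only through the KO+AAV libraries, so they had to differ, and members low in both groups were left out. *Krt17*, a keratin of basal and stressed epithelium, had 0, 0, 0, and 6.07 normalized counts in KO and 32.3, 26.5, 53.9, and 39.8 in KO+AAV libraries, a ratio of summed reads of 23.3 (exact 95% interval, 11.0 to 59.0). *Trp63*, the transcription factor that marks basal cells, had 4.2, 14.6, 22, and 28.6 in KO and 116, 33.5, 179, and 95.3 in KO+AAV libraries, a log2 fold change of 2.58 ± 0.63. *Krt15*, *Aqp3*, and *Perp* were also DEGs with log2 fold changes of 2.60, 3.11, and 0.50, and no group of the 6 genes overlapped. *Krt14*, which often pairs with *Krt5*, had 0.867 to 28.7 normalized counts in KO and 0 to 4.61 in KO+AAV libraries. All 6 DEGs of this list were DEGs whichever library was left out.

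Of 10 club cell genes, 3 were DEGs, all higher (median log2 fold change of 0.160). *Bpifa1*, an antimicrobial surface protein of the upper airway, had 43.1, 3107, 286, and 1838 normalized counts in KO and 50372, 25652, 37565, and 80640.4 in KO+AAV libraries, a log2 fold change of 6.42 ± 1.16. *Scgb3a1* had 189, 3629, 1086, and 2969.8 in KO and 23227, 15582, 35203, and 28880.3 in KO+AAV libraries, a log2 fold change of 4.33 ± 0.81, and *Scgb3a2* had a log2 fold change of 0.996. The groups of these 3 genes did not overlap, while *Scgb1a1* overlapped and ranged from 36780 to 55340 CPM in KO and 38250 to 54750 CPM in KO+AAV lung. Among 12 ciliated cell genes all were on the higher side (median 0.353) and *Mlf1* was the 1 DEG, with a log2 fold change of 0.91 ± 0.20. Of 10 airway cartilage genes, 4 were tested and none was a DEG (median 0.188), with mean levels of 3.94 to 4.29 in KO and 3.93 to 4.42 in KO+AAV libraries. *Itln1*, a lectin that binds microbial sugars, had 1 read in all KO libraries together and 12.7, 5.77, 18.7, and 20.9 normalized counts in the KO+AAV libraries, a ratio of summed reads of 62.5 (exact 95% interval, 10.8 to 2511). It too passed the filter only through the KO+AAV libraries, so it had to differ.

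**Figure D2:**
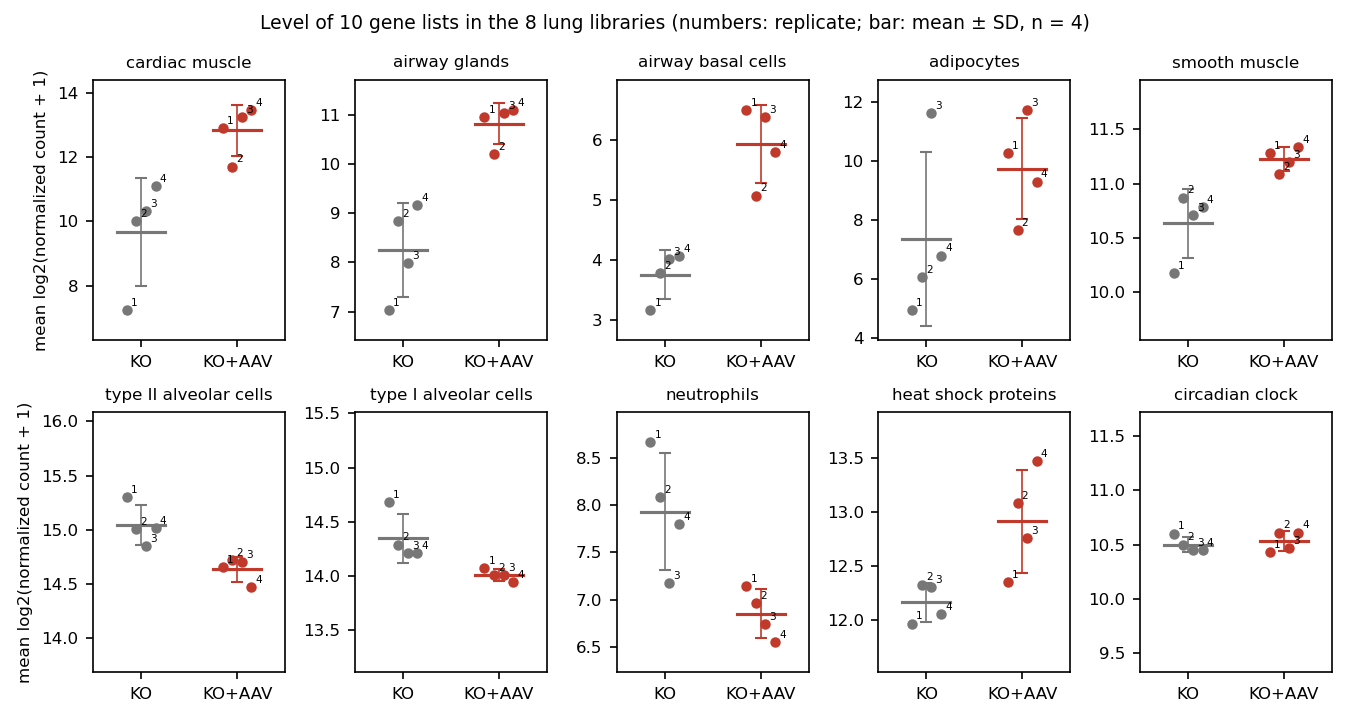
Each panel shows the level of 1 gene list (mean log2(normalized count + 1) over its tested genes, y axis) in the 4 KO and 4 KO+AAV lung libraries, with numbers for replicates and bars for the mean ± SD. Cardiac muscle, gland, and basal cell levels do not overlap between groups, KO replicate 1 is lowest in all 3, and the adipocyte level of KO replicate 3 lies within the range of the KO+AAV libraries.

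Of 10 smooth muscle genes, 5 were DEGs, all higher, and the median log2 fold change was 0.451. *Des*, the intermediate filament of all muscle types, had 4074, 4997, 5714, and 6040.2 normalized counts in KO and 9041, 8300.5, 8674, and 10927 in KO+AAV libraries, a log2 fold change of 0.83 ± 0.13, and is heart-enriched. *Cnn1* (calponin) and *Myocd*, a coactivator of serum response factor in cardiac and smooth muscle, had log2 fold changes of 0.92 ± 0.22 and 1.30 ± 0.30. The groups of the 3 genes did not overlap, and 3 of the 5 DEGs were left without KO+AAV replicate 4. Of 7 skeletal muscle genes tested, 5 were on the higher side and 2 on the lower. *Ckm*, *Tnnt3*, and *Atp2a1* were DEGs and higher, and *Ckm* is also heart-enriched. Mean normalized counts of *Acta1*, *Mylpf*, and *Myh1* were 44.15, 75.78, and 10.43 in KO and 41.06, 65.51, and 6.035 in KO+AAV lung. Those of *Tnni2* were 40.65 in KO and 57.99 in KO+AAV lung. *Myh2* and *Myh4*, the myosins of fast fibers, did not pass the filter. Adipocyte genes had as high a median log2 fold change as cardiac genes, 2.93 for 10 genes, yet none was a DEG (2 at P under 0.05), and KO replicate 3 had a mean level of 11.6 against 9.31 to 11.7 in KO+AAV replicates 1, 3, and 4 and 7.67 in KO+AAV replicate 2. Without KO replicate 3 the adipocyte median was 4.37 and 7 genes were DEGs, all higher, and without KO replicate 1 it was 2.0 with 1 DEG.

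Genes of the alveoli were on the lower side in KO+AAV lung. All 12 type II genes were on the lower side, with a median log2 fold change of -0.347, and 6 were DEGs, against 0.902% of all genes called lower. *Slc34a2*, the phosphate transporter of type II cells, had 87897, 57727, 50322, and 63932 normalized counts in KO and 47256, 46711, 44498, and 37940.5 in KO+AAV libraries, a log2 fold change of -0.53 ± 0.16. *Cxcl15*, a chemokine of lung epithelium, had 93779.8, 83802, 80280.4, and 91963 in KO and 70096, 64167, 72889, and 67099 in KO+AAV libraries, a log2 fold change of -0.35 ± 0.09. *Lyz1* (lysozyme) had 4332, 7586, 4379.6, and 4338 in KO and 2537, 2248, 3254, and 2303 in KO+AAV libraries, a log2 fold change of -0.97 ± 0.19, although reads of its near copy *Lyz2* may be split between them. *Lamp3*, *Napsa*, and *Etv5* were the other DEGs, at -0.43, -0.43, and -0.48. The surfactant gene *Sftpc* was no DEG, at 11310 to 16980 CPM in KO and 9141 to 11870 CPM in KO+AAV lung.

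All 10 type I genes were also on the lower side, with a median of -0.330 and 2 DEGs. *Cldn18*, a tight junction protein, had 32838, 25039, 24676, and 23777 normalized counts in KO and 20882, 13503, 21145, and 18535 in KO+AAV libraries, a log2 fold change of -0.53 ± 0.16, and *Emp2* had -0.39 ± 0.12. KO replicate 1 was the highest library for both genes. Without it the medians were -0.290 for type II and -0.208 for type I genes, with 4 and 0 DEGs. Without KO+AAV replicate 4, or without KO replicate 4, 1 of the 6 type II DEGs was left. In the same libraries the cardiac and airway lists were higher, and their part in the lower alveolar values was not tested beyond the models given below. *Kdr*, the main VEGF receptor, was the 1 DEG of 12 endothelial genes, with a log2 fold change of -0.31 ± 0.09 and groups that overlapped.

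All 12 neutrophil genes were on the lower side (median log2 fold change of -1.0), with 2 DEGs and 6 genes at P under 0.05. Of these 12 genes, 3 had a KO+AAV mean of at most 5 and passed the filter only through the KO libraries. *S100a9*, a calprotectin subunit, had 3018, 3681, 1782, and 3119 normalized counts in KO and 2315, 1356, 1276, and 992 in KO+AAV libraries, a log2 fold change of -0.99 ± 0.28. The collagenase *Mmp8* had 400.2, 247, 127, and 249 in KO and 153, 63.5, 70.5, and 81.7 in KO+AAV libraries, a log2 fold change of -1.44 ± 0.37. The groups of both genes overlapped by 1 library pair, and neither was a DEG without KO+AAV replicate 2 or without KO+AAV replicate 3. Of 13 alveolar macrophage genes, 2 were DEGs and lower (median -0.752), namely *Krt79* at -0.92 ± 0.28 and *Ear1*, which has near-identical copies, at -1.24 ± 0.35. Neither was a DEG without KO replicate 1, 2, or 4 or without KO+AAV replicate 4. No DEG was found by limma among 12 T cell genes (median -0.127, none at P under 0.05), 12 B cell genes (0.127, none), or 10 MHC class II genes (0.0778, none), whose levels were lowest in KO replicate 1. Without that library the medians were -0.381, -0.500, and -0.130, so those of B cells and MHC class II changed sign, still with no DEG. With the cardiac level as a covariate they were -1.30, -2.18, and -0.878, with 6, 0, and 0 DEGs, and with the cardiac and gland levels -1.48, -2.59, and -1.22, with 1, 0, and 0 DEGs.

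Of 24 inflammatory cytokines and NF-kB targets, none was a DEG by limma, 3 were at P under 0.05, and the median log2 fold change was -0.219. Without KO replicate 1, 1 gene of this list was a DEG and lower, and 4 were DEGs with the cardiac level and 1 with the cardiac and gland levels as covariates (medians of -0.830 and -0.691). *Il1b* had 842, 1159, 519, and 667 normalized counts in KO and 785, 257, 475, and 277 in KO+AAV libraries, with overlapping groups and a log2 fold change of -0.92 ± 0.37 (adjusted P of 0.376). *Cxcl2*, a neutrophil chemokine, had 27.3, 17.3, 12.5, and 35.6 in KO and 1.96, 2.31, 7.26, and 24.1 in KO+AAV libraries, with a log2 fold change of -1.74 ± 0.68 and overlapping groups. The chemokine *Cxcl5* had a higher mean in KO+AAV lung, 3336 normalized counts against 1927 in KO lung. Of 22 interferon-stimulated genes, *Oas2* was the 1 DEG, at 626 to 632 in KO and 688 to 1041 in KO+AAV libraries (median of the list -0.0186). Complement (14 genes, median 0.102, 2 at P under 0.05) and extracellular matrix genes (19 genes, median -0.0342, 3 at P under 0.05) held no DEG.

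All 15 heat shock genes were on the higher side (median log2 fold change of 0.484), 6 were DEGs, and 14 were at P under 0.05. *Hspa8*, the constitutive HSP70 chaperone, had 40637, 43551, 45887, and 41621 normalized counts in KO and 50649, 58428, 60056, and 74603 in KO+AAV libraries, a log2 fold change of 0.49 ± 0.12. *Hspb1*, a small heat shock protein, had 3446, 2976, 3450.4, and 2685 in KO and 3524, 6975, 4838, and 6847 in KO+AAV libraries, a log2 fold change of 0.77 ± 0.21. *Hsph1*, *Hspb8*, *Hsp90aa1*, and *Hsp90ab1* were the other DEGs, at 1.13, 0.48, 0.48, and 0.46, and no group of the 6 DEGs overlapped. The inducible *Hspa1a* and *Hspa1b*, whose near-identical sequences may share reads, were highest in KO+AAV replicates 2 and 4, at 4052 and 6113 for *Hspa1a*, against 316 to 1172 in the other 6 libraries. Unlike the cardiac and gland lists, the heat shock list was lowest of its group in KO+AAV replicate 1. Between 2 DEGs (without KO replicate 4) and all 6 (without KO+AAV replicate 1) were left when 1 library was omitted.

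All 20 respiratory chain genes were on the higher side (median log2 fold change of 0.393), 17 were at P under 0.05, and 3 were DEGs. *Ndufv1*, a subunit of complex I, had 3904, 4034, 5051, and 3868 normalized counts in KO and 5267, 4915, 6327, and 6219.5 in KO+AAV libraries, where only KO replicate 3, the KO library with the most fat RNA, reached the KO+AAV range. Its log2 fold change was 0.43 ± 0.11, and with KO replicate 1, 2, or 4 or KO+AAV replicate 3 or 4 left out, no DEG of the list was left. Without KO replicate 3 the median was 0.501 and 13 of the 20 genes were DEGs. *Acadm*, which opens the oxidation of medium-chain fatty acids, had 4471, 4937, 7514, and 4919 in KO and 7561, 6778, 9613, and 9615 in KO+AAV libraries, a log2 fold change of 0.63 ± 0.17, and was the 1 DEG of 20 fatty acid oxidation genes (median 0.270). *Pfkm*, the muscle phosphofructokinase and a heart-enriched gene, was the 1 DEG of 16 glycolysis genes, with a log2 fold change of 1.07 ± 0.21.

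**Figure D3:**
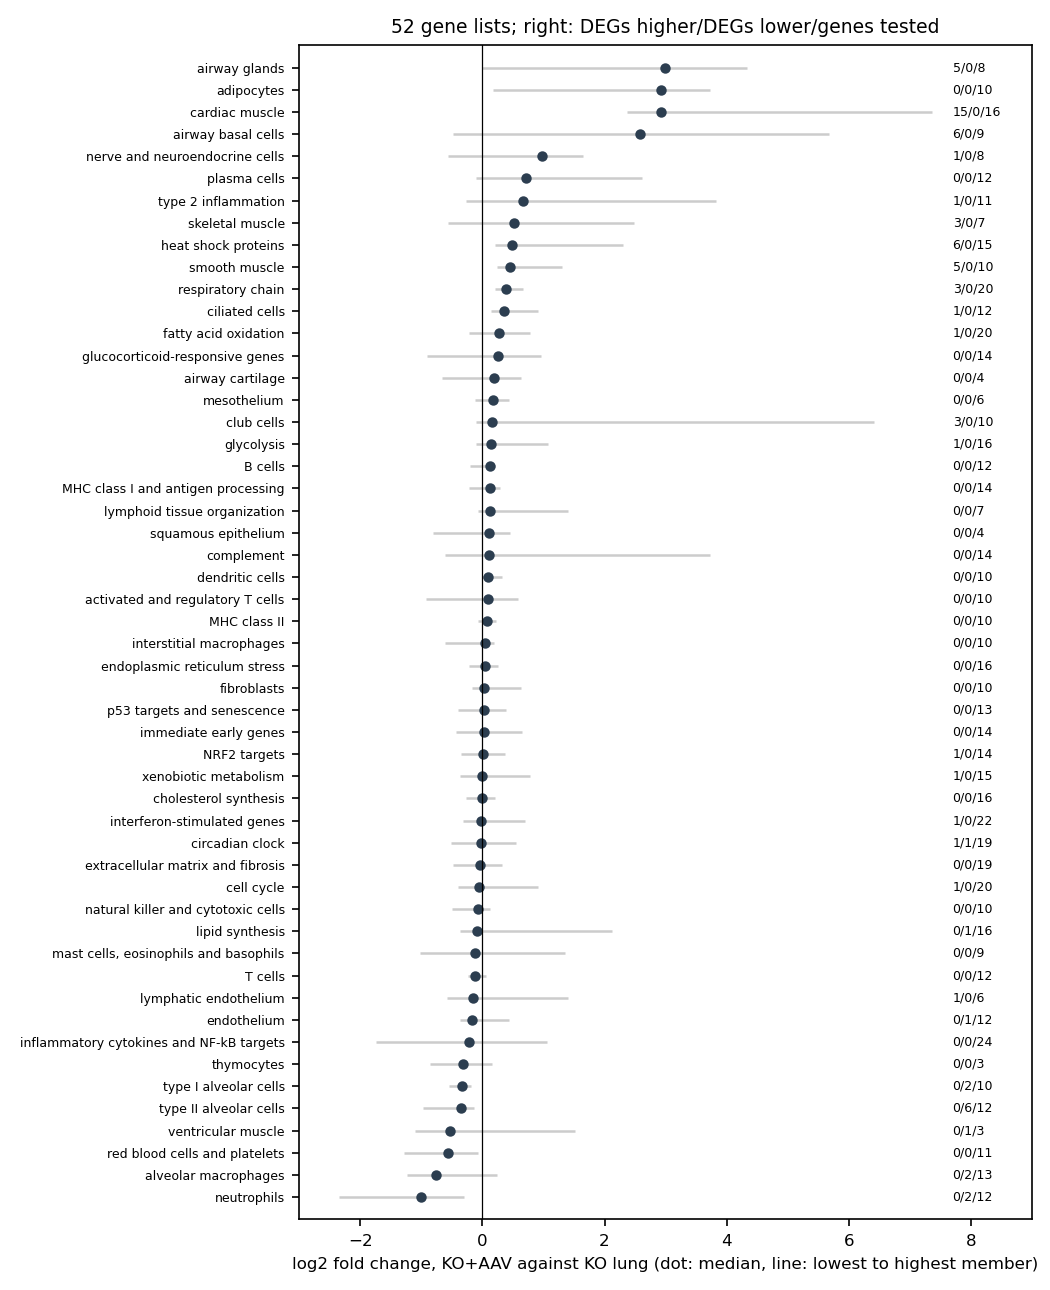
Each row is 1 of 52 gene lists, with a dot at the median log2 fold change (KO+AAV against KO lung, x axis) and a line from its lowest to its highest tested gene. The counts at the right give DEGs higher, DEGs lower, and genes tested. All 16 cardiac muscle genes are higher and 15 are DEGs, while most immune lists lie near 0.

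Among the 10 lower genes with the smallest P, *Col12a1*, a fibril-associated collagen, had 1608, 1639, 1575, and 1452 normalized counts in KO and 1236, 1078, 916, and 1029.6 in KO+AAV libraries, a log2 fold change of -0.57 ± 0.09. *Itgb6*, an epithelial integrin subunit that activates TGF-β, had 2249.7, 1994, 1932, and 1816 in KO and 1364, 1043, 1571, and 1219 in KO+AAV libraries, a log2 fold change of -0.63 ± 0.12. *Esm1*, a proteoglycan secreted by endothelium, had 1848, 1637, 1314, and 1137 in KO and 872, 929, 810.2, and 919 in KO+AAV libraries, a log2 fold change of -0.73 ± 0.14. The groups of all 3 genes were apart, but no lower gene had an adjusted P under 0.05. *Mthfd1* of folate metabolism, the integrin *Itga9*, the semaphorin receptor *Plxna4*, *Sh3rf3*, *Olfm2*, and the noncoding *2810433D01Rik* were the others beside *Lyz1*, between -0.95 for *Olfm2* and -0.35 for *Plxna4*. *Rhbdl3*, a rhomboid-family membrane protein, was among the 10 higher genes with the smallest P, with 249, 196, 264, and 204 in KO and 465, 411, 590.3, and 508 in KO+AAV libraries and a log2 fold change of 1.11 ± 0.15 (adjusted P of 0.0691).

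**Figure D4:**
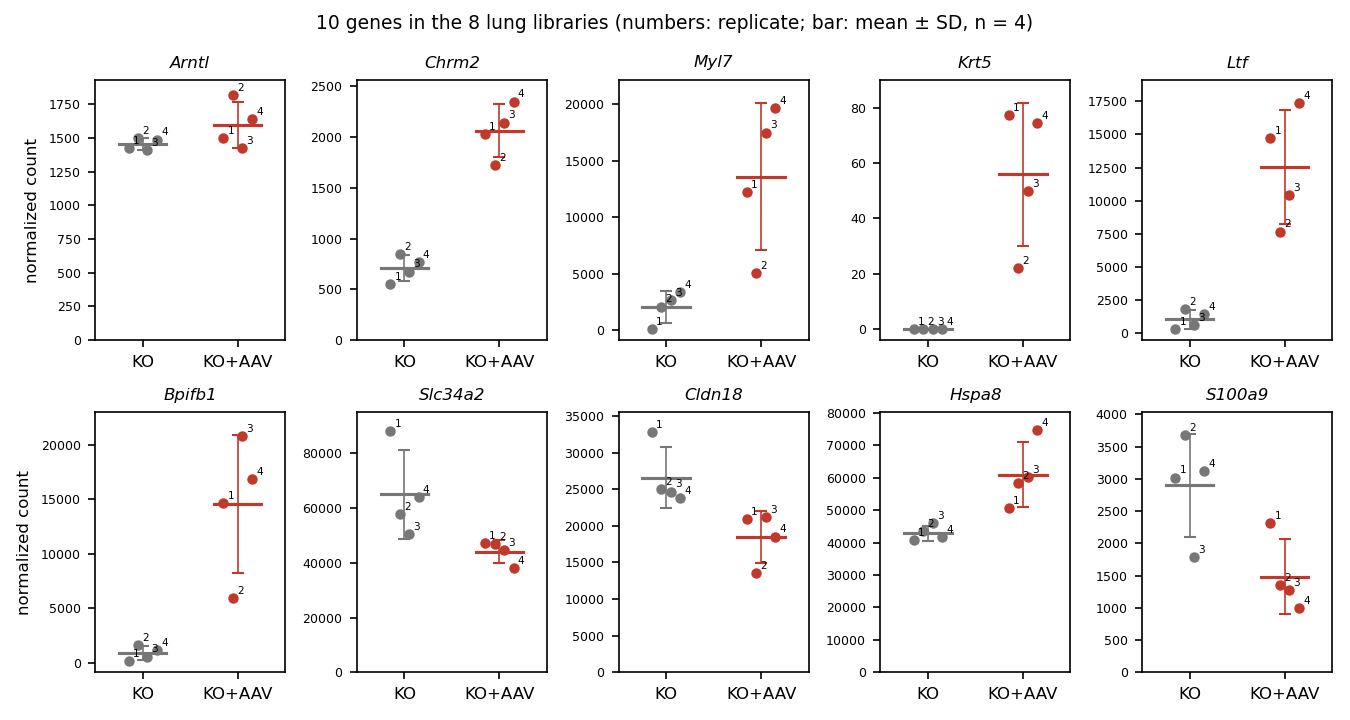
Each panel shows the normalized count (y axis, from 0) of 1 gene in the 4 KO and 4 KO+AAV lung libraries, with numbers for replicates and bars for the mean ± SD. *Arntl* overlaps between groups, *Krt5* is at 0 in every KO library, *S100a9* overlaps by 1 pair of libraries, and the other 7 genes do not overlap.

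To separate these tissues from the rest, the cardiac muscle level of each library, alone or with the airway gland level, was added to the model. With the cardiac level, 749 of the 835 DEGs kept their direction and 48 were still DEGs, and the median of their log2 fold changes, each taken as positive in its direction without the covariate, went from 1.06 to 0.305 (0.311 with both levels). With both levels, 651 kept their direction and 27 were still DEGs in that direction, 8 heart-enriched, 2 fat-enriched, and 17 others. The 835 include 20 genes of the cardiac muscle and gland lists, whose own values made the levels. Of the 815 others, 737 kept their direction and 46 were still DEGs with the cardiac level, and 642 and 27 with both, with medians of 0.989, 0.305, and 0.319. In that model 242 of all 21072 genes tested had a P under 0.01, 104 higher and 138 lower, and none had an adjusted P under 0.05. About 211 would be expected at this cutoff if no gene differed. The levels went with the groups (correlation with group of 0.812 for cardiac muscle and 0.894 for glands over the 8 libraries) and the model left 4 degrees of freedom, so group and tissue level can only in part be told apart.

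Among the genes that stayed DEGs with both levels in the model, *Krt5* had a log2 fold change of 5.01 and ENSMUSG00000118522 of 5.21. Both had passed the filter only through the KO+AAV libraries. *Chrm2* had 0.80 and *Rhbdl3* 1.52. On the lower side were *Lyz1* at -1.68, *S100a9* at -1.92, *Myh7* at -0.84, *Olfm2* at -1.498, and *2810433D01Rik* at -1.24. *Acadm* had 0.86. List medians depended on which level was in the model. That of type II genes was -0.0573 with the cardiac level and -0.282 with both (1 DEG each), and that of type I genes was -0.00315 and -0.0426 (no DEG by limma). The respiratory chain median was 0.0731 with the cardiac level and 0.420 with both, with no DEG by limma, and that of heat shock genes was 0.421 with 1 DEG and 0.597 with none. Fatty acid oxidation genes had a median of 0.121 with no DEG and of 0.831 with 7 DEGs, and neutrophil genes of -0.602 with no DEG and of -1.75 with 5 DEGs. Over all 21072 genes there were 440 DEGs with the cardiac level and 242 with both. List counts under these models, here and above, are to be read against those.

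**Figure D5:**
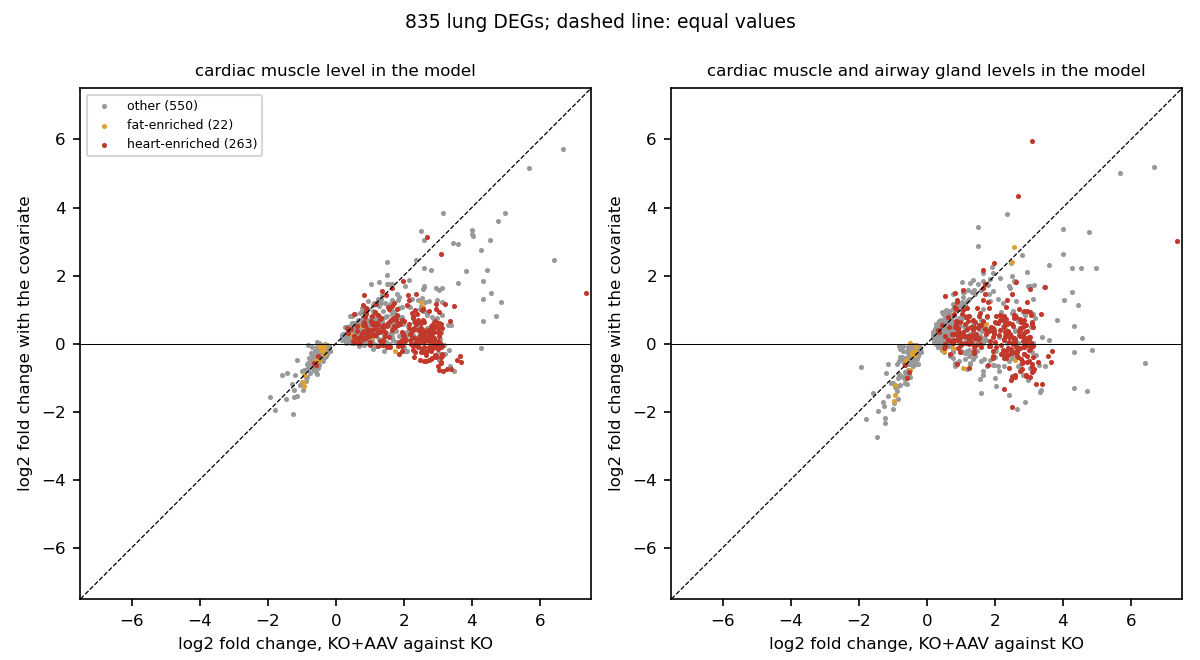
Each point is 1 of the 835 DEGs, placed by its log2 fold change without a covariate (x axis) and with the cardiac muscle level (left) or the cardiac muscle and airway gland levels (right) in the model (y axis), colored by tissue class, with the 20 DEGs whose own values made the levels included. Of the 835 DEGs, 749 keep their direction on the left and 651 on the right, and *Krt5* and ENSMUSG00000118522 stay at 5.01 and 5.21 on the right.

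The same groups were also sampled at this age in heart, in liver, and in white fat, with 4 libraries each, which served to ask whether the lung differences were also seen there. Fitted on their own 8 libraries, they gave 15 DEGs of 18089 genes tested in heart, 91 of 16656 in liver, and 15 of 21092 in white fat. None had an adjusted P under 0.05 by limma. Of the lung DEGs tested in each, 0 of 700 in heart, 8 of 551 in liver, and 2 of 711 in white fat were DEGs in the same direction. With so few DEGs in those tissues, little overlap could occur. These counts therefore do not show that the lung differences were absent there. The difference between lung and the mean of the other 3 tissues was then tested in 1 model of 32 libraries. It passed an adjusted P of 0.05 for 39 genes (0.185%, with 310 or 1.47% at P under 0.01), all with a higher log2 fold change in lung and 38 of them lung DEGs, against 14 for lung versus heart, 15 versus liver, and 27 versus white fat. edgeR on the recovered reads of 31 libraries called none of these (212 at P under 0.01 for the mean of the others).

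Airway genes were among the 39, but they had few reads in the other tissues. Except in white fat, where *Krt5* reached 1669 in the library named below and the other 6 genes at most 34.4, the 7 genes given next had at most 19.0 normalized counts in any heart or liver library. With so little there, a difference could hardly be seen in those tissues, so the excess largely restates the lung difference and does not show that a change was particular to lung. The KO+AAV minus KO difference in lung exceeded the mean of the others by 6.67 for ENSMUSG00000118522 (adjusted P of 6.57e-06), 5.25 for *Bpifa1* (0.00451), 4.001 for *Bpifb1* (0.00800), and 3.59 for *Itln1* (1.74e-06). For *Scgb3a1* and *Aqp3*, a water and glycerol channel of basal cells, the excess was 3.88 and 3.42 (adjusted P of 0.0198 and 0.0141). For *Krt5* it was 6.69 (adjusted P of 0.04995), and KO white fat replicate 2, which also held 18000 CPM of the epididymal gene *Gpx5*, was the 1 library of the other tissues with much *Krt5* (40.2 CPM). *Chrm2*, *Asb11*, *Gm21976*, and *Myl7* exceeded the mean of the others by 1.62, 2.76, 3.06, and 3.11, with an adjusted P of 0.9999 each. KO heart replicate 2 held 17400 CPM of the liver gene *Alb* (3.56 to 4.86 in the other heart libraries). Without it the count of genes was 59, and 84 without both of these libraries. It was 22 without KO lung replicate 1, 64 without KO lung replicate 4, 93 without KO+AAV lung replicate 2, 24 without KO+AAV lung replicate 3, and 25 without KO+AAV lung replicate 4.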

How the data were processed

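RNA-Seq of poly(A) libraries was aligned by the authors with HISAT2 to GRCm38, counted per gene with HTSeq, and divided by DESeq2 size factors. The deposited values, a signal in normalized counts, gave whole reads in all 8 lung libraries within 0.05 of a read, 38180622 to 49821579 per library. The annotation release and strand setting are not given in the sources used here. Deposited columns of other samples were used only for gastrocnemius, heart, liver, and white fat of the same age.

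Values were taken as log2(normalized count + 1), genes with a mean of at most 5 over the 8 lung libraries were left out, and groups were compared with limma 3.58.1 (trend) in R 4.3.3. A DEG had P under 0.01, the cutoff of the study, and adjusted P is by Benjamini-Hochberg over all 21072 genes. edgeR 4.0.16 and DESeq2 1.42.0 were run on the recovered reads, which for the tissue model left out 1 heart library whose reads could not be recovered. *Arntl* was tested by exact permutation. Scripts were tested on simulated data. Gene coordinates are from GENCODE and promoter sequences from RefSeq, both on GRCm38.

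Named genes were *Arntl* and the clock list; genes past an adjusted P of 0.05 without overlap, filled with the DEGs of smallest P without overlap to 10 in each direction; up to 4 members of each list described, by P among DEGs or else by mean; the cardiac, gland, and basal cell lists; and genes past the adjusted threshold in lung for the tissue interaction. Genes named beyond this rule, chosen after their values were seen, were further DEGs of a list, *Hspa1a*, *Hspa1b*, *Il1b*, *Cxcl2*, *Cxcl5*, and markers of other cell types. Gene lists and members were chosen with earlier results of these data known. Whether libraries came from separate mice is not labelled, so P values measure only the spread between these samples. Fold changes on the log2(value + 1) scale understate the change of low genes, and intervals of read ratios cover counting error only.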

Additional observations from a re-analysis of the deposited data

Results flagged for a closer look

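Of 254 groups of 4 libraries tested for a value far from the other 3 (Dixon's test, critical value 0.829), 22 had one, and chance alone flags about 1 in 20 groups. KO replicate 1 was far below the other KO libraries in the mean log2 level of squamous epithelium (3.90, others 5.08 to 5.30), T cell (6.93, others 8.11 to 8.29), activated and regulatory T cell (4.68, others 5.54 to 5.62), B cell (7.56, others 9.66 to 9.97), and fibroblast genes (11.5, others 11.9). It was far above them in *Cldn18*, with 32840 normalized counts.

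KO replicate 3 stood apart from the KO libraries by higher levels of respiratory chain (12.3, others 11.9 to 12.0) and lipid synthesis genes (13.0, others 12.2 to 12.3) and a lower level of xenobiotic metabolism genes (11.6, others 12.0 to 12.1). It was also above them in *Ndufv1* (5051 normalized counts) and *Acadm* (7514 normalized counts). KO replicate 2 was above the other KO libraries in *Lyz1* (7586 normalized counts), *Gm21976* (12.7 normalized counts), and *Itln1* (0.911 normalized counts, 1 read). KO replicate 4 was above them in *Nppa* (350.4 normalized counts), *Krt17* (6.07 normalized counts), and ENSMUSG00000118522 (0.867 normalized counts, 1 read).

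KO+AAV replicate 2 was far below the other KO+AAV libraries in the level of airway gland (10.2, others 11.0 to 11.1), type 2 inflammation (6.40, others 7.44 to 7.58), and nerve and neuroendocrine genes (6.25, others 6.71 to 6.78). KO+AAV replicate 1 was below them in p53 target genes (9.81, others 9.93 to 9.95), and KO+AAV replicate 4 above them in *Hspb8* (3928 normalized counts).

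The KO+AAV minus KO difference in lung departed from the mean of heart, liver, and white fat, by the interaction term of the 32-library limma model, for 7 genes named here. The excess in lung was 6.69 for *Krt5*, 6.67 for ENSMUSG00000118522, 3.59 for *Itln1*, 4.001 for *Bpifb1*, 3.42 for *Aqp3*, 5.25 for *Bpifa1*, and 3.88 for *Scgb3a1* on the log2 scale. Apart from *Krt5*, these genes had few reads in the other tissues, so the excess largely restates the lung difference. *Krt5* reached 1669 normalized counts in KO white fat replicate 2, and its lung difference alone was 5.68. edgeR on 31 libraries called none of the 7 at an adjusted P under 0.05.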

How the results depend on the processing

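Counts of DEGs stayed within 1.5 times of the count reported with a pseudocount of 0.5, TMM scaling, no filter, a mean above 50, edgeR, and DESeq2. With DESeq2, 357 DEGs were lower and 626 genes passed an adjusted P of 0.05. Without a filter 13 genes passed it, and 2 did with a mean above 50. Library quality weights gave 1392 DEGs (1029 higher, 363 lower) and 445 genes past the adjusted threshold. With 1 library left out, DEGs ranged from 418 to 1098, higher DEGs from 352 to 904, lower DEGs from 64 to 331, genes past the adjusted threshold from 2 to 257, and genes departing from the mean of the other tissues from 22 to 93. The cause was not tested.

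Tissue levels in the model moved both counts and split (77.2% of DEGs higher without them). There were 440 DEGs with the cardiac level (218 higher, 49.5%), 443 with the gland level (174 higher, 39.3%), 242 with both (104 higher, 43.0%), and 0 genes past the adjusted threshold in all 3. With the basal cell level there were 1490 DEGs (891 lower, 40.2% higher) and 479 genes past it, and with the adipocyte level, an alternative chosen after seeing the data, 409 DEGs (331 higher, 78 lower) and 2. No value of a single gene is given here with the level of its own list, but the counts include the genes of those lists.

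Reversals were counted over 74 of the named genes. Reversed log2 fold changes with the cardiac level were -0.0057 for *Hlf*, 0.12 for *Per3*, and 0.39 for *Nr1d2*. With the gland level they were 0.14 for *Per3*, 0.51 for *Nr1d2*, -0.28 for *Ryr2*, -0.41 for *Tnni3*, -0.53 for *Mybpc3*, -1.87 for *Myl7*, -0.39 for *Trp63*, -0.19 for *Bpifa1*, -0.35 for *Scgb3a1*, -0.35 for *Scgb3a2*, -0.15 for *Mlf1*, and -0.088 for *Myocd*. With the basal cell level they were -0.19 for *Hlf*, 0.25 for *Per3*, 0.82 for *Nr1d2*, -0.034 for *Ryr2*, -0.225 for *Tnni3*, -0.39 for *Mybpc3*, -0.57 for *Nppa*, -1.51 for *Myl7*, -0.044 for *Mlf1*, and -0.064 for *Prox1*. With both levels they were 0.36 for *Nr1d2*, -0.57 for *Bpifa1*, -0.24 for *Scgb3a1*, -0.21 for *Scgb3a2*, and -0.12 for *Mlf1*. *Nr1d2* was 0.11 with the adipocyte level, 0.02 without KO replicate 1, and 0.036 without KO+AAV replicate 3. Over these 74 genes and the alternatives, 1257 values kept direction and call, 301 lost the call, 11 gained it, and 33 reversed. Other DEGs named above also reversed. With the cardiac level, *Ckm*, *Tff2*, and *Muc5ac* were at -0.48, -0.18, and -0.21. With both levels, *Ckm* and *Muc5ac* were at -1.07 and -0.37.

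For lung against the other tissues, 16-library models gave 4 genes for heart and 0 for white fat, and edgeR gave 0 in all contrasts. As alternatives chosen after seeing the data, leaving out KO heart replicate 2 gave 59 genes for the mean of the others, and leaving out KO white fat replicate 2 as well gave 84 for the mean and 26 for liver.

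Same-numbered lung samples correlated at -0.223, -0.0312, 0.233, and 0.124 in their deviations. These values show no pairing by number but cannot exclude one. The samples numbered 3 correlated best with each other, and no other number matched both ways. With a replicate block there were 927 DEGs (718 higher, 209 lower) and 0 genes past the adjusted threshold.

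With 4 libraries a group and tissue levels that go with the groups, the models cannot fully tell group from tissue sampling. *Krt5*, *Itln1*, *Krt17*, and ENSMUSG00000118522 rest on 0 to 7 reads in KO lung, so their folds have wide or one-sided limits. These genes passed the filter only through the KO+AAV libraries, so they had to differ.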

Other observations

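Other lists held few DEGs. *Muc5ac*, a gel-forming mucin, was the 1 DEG of 11 type 2 inflammation genes (log2 fold change of 1.42, list median 0.664). *Prox1*, a transcription factor of lymphatic endothelium that is also made in heart muscle, was the 1 DEG of 6 lymphatic genes (log2 fold change of 1.17, list median -0.158). *S100b*, a calcium-binding protein of glia, was the 1 DEG of 8 nerve and neuroendocrine genes (log2 fold change of 1.42, list median 0.982).

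All 11 red blood cell and platelet genes were on the lower side by limma (median log2 fold change of -0.563), with no DEG and 1 gene at P under 0.05. Of 12 plasma cell genes, 11 were on the higher side (median 0.716), with no DEG by limma and 4 genes at P under 0.05.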
